A study of Mus musculus with 2 samples.

Results

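The genes described here serve the folding and secretion of proteins in the endoplasmic reticulum (ER). A list of 45 genes was drawn up by function. No measured value was in the rule, but earlier results of these data were known when the list was chosen. Every probe set whose platform gene symbol was one of the 45 was read. Of the 45 genes, 44 had at least 1 probe set that carried their symbol alone, 105 probe sets in all, out of 18193 named genes on the array. Sec61g, the gamma subunit of the Sec61 channel, shared its probe set with other gene symbols and was given no value. The RNA came from B cells of mice aged 8 weeks on the NOD background, which is prone to autoimmune diabetes. The AIRE transgenic group carried human AIRE under an MHC class II promoter, and the non-transgenic group did not. Such a promoter is active in B cells and in other antigen-presenting cells, so the transgene was not limited to B cells. Each group was 1 Affymetrix array with RNA from 2 mice, and the cells were those with B220 on their surface and without Thy1 or CD11c. With 1 array per group no difference has a replicate check, and no p-value or standard error could be given.

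Proteins bound for the cell surface or for secretion are threaded into the ER through the Sec61 channel, lose their signal peptide to signal peptidase, and fold with the help of chaperones such as Hspa5 (BiP). Proteins that fail to fold are returned to the cytosol for degradation. Load beyond the folding capacity is sensed by Ern1 (IRE1), Atf6 and the kinase PERK, which raise chaperone genes through Xbp1, cleaved Atf6 and Atf4. B cells enlarge this machinery when they become antibody-secreting plasma cells, in a programme that needs Xbp1 and Prdm1.

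Intensities below are the deposited values after the medians of both arrays were aligned, and ratios are log2 of transgenic over non-transgenic. A gene with several probe sets is represented by that of highest mean level, and it was counted where at least 1 of its 2 values was 98.8 or more, the pooled median intensity. All 44 measured genes passed this filter, and Chac1 did so on the non-transgenic array only. Intensities of different probe sets are not comparable with each other.

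The genes of ER folding and secretion were close to the bulk of the array. In transgenic cells 1 of the 44 genes was higher by 2-fold or more, as were 4.43% of the 10778 genes above the filter, and 0 were lower by that much, as were 3.19% of all genes. The median log2 ratio was 0.25 over the 44 genes and 0.19 over all genes. A ratio above 0 was seen in 33 of 44, against 64.9% of all genes, and 29 of 44 lay within the range that holds the middle 50% of all genes (-0.15 to 0.48). Less than 1.5-fold apart were 37 of the 44, against 74.2% of all genes. At that smaller threshold 4 were higher (Dnajc3, Sec61a1, Hspa5 and Spcs2), against 17.4% of all genes, and 3 were lower (Fkbp11, Chac1 and Derl3), against 8.42%. These shares of all genes include many dim genes, while most of the 44 were bright. With the filter at the 75th percentile, 37 of the 44 and 6719 of all genes remained, with medians of 0.28 and 0.24. Of these 6719 genes, 170 rose past 2-fold and 94 fell past it, beside 1 and 0 of the 37. The standard deviation of the ratios was then 0.34 over the 37 and 0.46 over the 6719, where it had been 0.40 and 0.58.

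**Figure D1:**
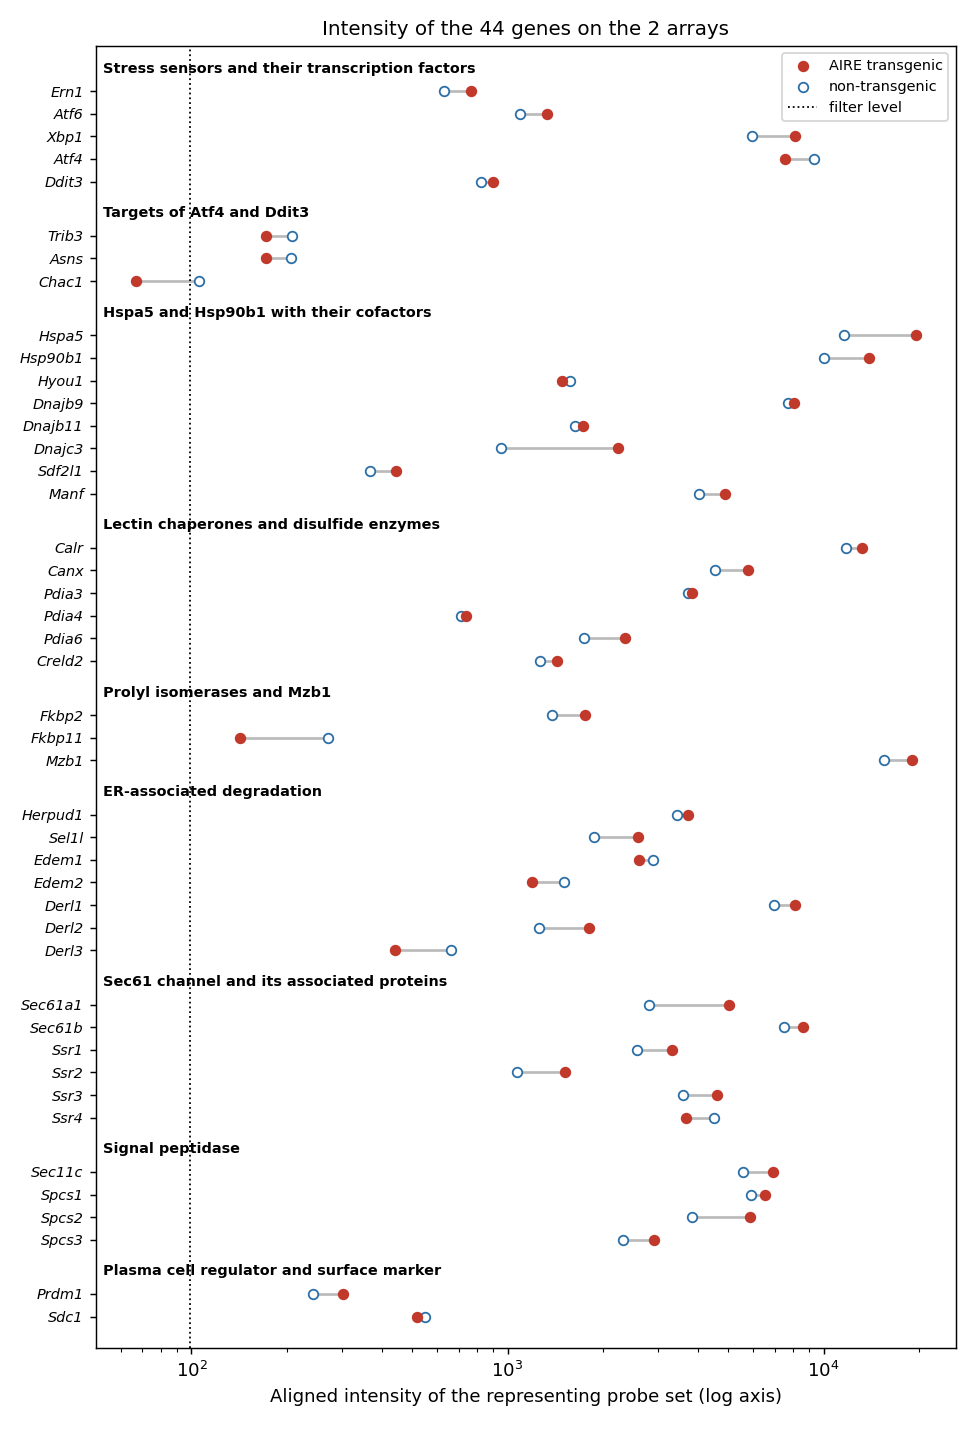
Aligned intensity of the representing probe set of each of the 44 genes on a log axis, by step of the pathway, with filled points for the AIRE transgenic array and open points for the non-transgenic array. The widest gap is that of Dnajc3, at 2229 in transgenic against 953 in non-transgenic cells.

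All 8 measured B cell markers lay above the filter, with Ms4a1 (CD20) at 29789 in transgenic against 38866 in non-transgenic cells. Their median log2 ratio was -0.40, beside 0.19 over all genes, and all 8 were below 0. Of the 8, 3 were at least 1.5-fold lower, against 8.42% of all genes. The antigen receptor chain Cd79a, at -1.26, was the 1 past 2-fold. Markers of other cells were present as well, among them transcripts of the surface proteins that the labelled sort was to lack. Itgax, which encodes CD11c, was at 804 in transgenic against 670 in non-transgenic cells, and Thy1 at 101 in transgenic against 208 in non-transgenic cells. The median ratio was 0.60 over 4 conventional dendritic cell markers above the filter, with Clec10a past 2-fold (1.20). Of the 4 neutrophil markers above the filter (median 0.47), Mpo was at 1.06 and Camp at 0.98, but S100a8 at -0.17 and S100a9 at -0.04. Mpo was under the filter on the non-transgenic array. The 5 measured neutrophil markers summed to 7993 in transgenic against 8386 in non-transgenic cells. Over 5 T cell markers the median ratio was -0.37, with Cd4 at 2.01 and Thy1 at -1.04. Cd4 was at 155 in transgenic against 38.4 in non-transgenic cells, under the filter on the non-transgenic array. Over 6 monocyte and macrophage markers the median was 0.01, while 0 of 3 measured erythroid markers passed the filter. Natural killer cell markers had a summed intensity of 7474 in transgenic against 4705 in non-transgenic cells, with all 7 measured genes above the filter and a median of 0.55. Past 2-fold were 2 of the 7, Klre1 at 1.29 and Gzma at 1.02, against 4.43% of all genes, and Prf1 was below 0 (-0.06). Plasmacytoid dendritic cell markers, of a cell type that is also B220-positive and rich in ER, summed to 29717 in transgenic against 28060 in non-transgenic cells (median 0.24 over 9). Of these 9 genes 5 were above 0, 2 of them past 2-fold (Klk1 at 1.29 and Ccr9 at 1.06), and the defining gene Siglech was at -0.09. Plasma cell markers other than the members summed to 30182 in transgenic against 37513 in non-transgenic cells (median -0.28 over 6). No marker was at an intensity of 0, and in bulk RNA fewer cells of a type and less RNA per cell cannot be told apart. For the beta-actin control, signal near the 3′ end over that near the 5′ end was 1.49 in transgenic and 1.25 in non-transgenic RNA. The part that cell makeup or RNA quality has in the ratios below was not tested.

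At the entry steps into the ER, the median was 0.36 over 6 genes of the Sec61 channel and its associated proteins and 0.33 over 4 genes of signal peptidase. Of these 10 genes 2 (Sec61a1 and Spcs2) rose by 1.5-fold or more and 0 fell by that much, against 17.4% and 8.42% of all genes. The medians were 0.19 and 0.16 without alignment, 0.14 and 0.17 when probe sets were averaged, and 0.18 and 0.19 by the probe set of median ratio. Over all genes the median was 0.19 as reported, and 0.01, 0.11 and 0.05 under these settings in turn. Sec61a1, the pore-forming subunit, was at 5022 in transgenic against 2812 in non-transgenic cells (log2 ratio 0.84). Its 6 probe sets did not show a common direction, with 3 above 0 and 3 below, from -0.86 to 0.84. Sec61b, a small subunit of the channel, was at 8582 in transgenic against 7487 in non-transgenic cells (0.20).

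The Ssr genes encode the translocon-associated protein complex, which sits beside Sec61 and helps the entry of some proteins. Ssr1 was at 3306 in transgenic against 2571 in non-transgenic cells (0.36), Ssr2 at 1519 in transgenic against 1072 in non-transgenic cells (0.50), and Ssr3 at 4592 in transgenic against 3600 in non-transgenic cells (0.35). Ssr4 stood on the other side, at 3671 in transgenic against 4509 in non-transgenic cells (-0.30), and all 3 of its probe sets were below 0. Both probe sets of Ssr3 were above 0, while Ssr1 had 3 above and 1 below.

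Signal peptidase cuts the signal peptide from the entering chain. Its catalytic subunit Sec11c was at 6936 in transgenic against 5541 in non-transgenic cells (0.32), but a second probe set was at -0.31. Spcs1, an accessory subunit, was at 6509 in transgenic against 5901 in non-transgenic cells (0.14), with 2 probe sets above 0 and 1 below. Spcs2, another accessory subunit, was at 5847 in transgenic against 3820 in non-transgenic cells (0.61) with its other probe set at 0.33, and Spcs3, a subunit needed for activity, at 2912 in transgenic against 2312 in non-transgenic cells (0.33). Of the 3 with several probe sets, Spcs2 was thus the one whose probe sets all lay on the same side of 0.

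Other genes of the pathway act beside these entry steps. The signal recognition particle and its receptor, which bring ribosomes to the ER, had a median of 0.35 over 7 genes with 0 at least 2-fold apart. Of the particle, Srp14 was at 10145 in transgenic against 6800 in non-transgenic cells (0.58) and Srp9 at 4430 in transgenic against 2616 in non-transgenic cells (0.76). The receptor genes Srpr and Srprb were at 0.10 and -0.09. Other translocation factors had a median of 0.21 over 10 genes with 0 at least 2-fold apart, with the second catalytic subunit of signal peptidase, Sec11a, at 4942 in transgenic against 4034 in non-transgenic cells (0.29) and the translocation factor Tram1 at 4236 in transgenic against 3521 in non-transgenic cells (0.27). The oligosaccharyltransferase, which adds N-glycans to entering chains, had a median of 0.12 over 11 genes, again with 0 at least 2-fold apart. Its catalytic subunit Stt3b was at 10933 in transgenic against 10040 in non-transgenic cells (0.12), and Dad1, another subunit, was at 3879 in transgenic against 4567 in non-transgenic cells (-0.24).

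Among folding factors, Hspa5 and Hsp90b1 with their cofactors had a median of 0.27 over 8 genes, and this group held the single gene past 2-fold. Dnajc3, a J-domain co-chaperone of Hspa5 that also inhibits the kinase PERK, was at 2229 in transgenic against 953 in non-transgenic cells, 2.34-fold higher (log2 ratio 1.23). Each of its 5 probe sets was higher on the transgenic array, from 0.18 to 1.23, and 2 of the 5 passed 2-fold. The ratio was 0.73 as the mean of its probe sets and 0.62 by the one of median ratio, so the 2-fold call rests on the choice of probe set.

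Hspa5, the central ER chaperone of the Hsp70 family, was at 19671 in transgenic against 11565 in non-transgenic cells (0.77). Its further 2 probe sets were at 0.28 and 0.32. Hsp90b1 (GRP94), the ER member of the Hsp90 family, was at 13951 in transgenic against 10005 in non-transgenic cells (0.48) with its other probe set at 0.13. All probe sets of both genes thus lay above 0, with ratios that differed between probe sets of the same gene. Hyou1, a nucleotide exchange factor of Hspa5, went the other way with all 3 of its probe sets below 0, at -0.08, -0.54 and -1.08. Its representing probe set was at 1489 in transgenic against 1577 in non-transgenic cells.

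The J-domain proteins Dnajb9 and Dnajb11, both partners of Hspa5, were at 8079 in transgenic against 7710 in non-transgenic cells (0.07) and at 1729 in transgenic against 1638 in non-transgenic cells (0.08). Both ratios fell below 0 under each of the other scalings, under which the median of all genes was lower too. Sdf2l1, which works with Dnajb11, was at 445 in transgenic against 367 in non-transgenic cells (0.28). Manf, an ER-resident protein that binds Hspa5, was at 4872 in transgenic against 4036 in non-transgenic cells (0.27). Heat shock genes of the cytosol and mitochondria, which answer to another stress pathway, had a higher median, 0.69 over 10 measured genes. Of these 10 genes 4 were at least 2-fold higher, against 4.43% of all genes, and 1 was below 0, Hspb1 at -0.61. The summed intensity of the 10 was 97758 in transgenic against 58108 in non-transgenic cells. The heat shock list was chosen with earlier results of these data known, so its values are a description only. How the heat shock response bears on the ER chaperones was not tested.

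Lectin chaperones, which hold glycoproteins during folding, and disulfide enzymes had a median of 0.17 over 6 genes, and 6 of the 6 lay within the middle 50% of all genes. Calr (calreticulin) was at 13186 in transgenic against 11747 in non-transgenic cells (0.17), while its other 2 probe sets were at -0.09 and -0.22. Canx (calnexin), its membrane-bound relative, was at 5747 in transgenic against 4541 in non-transgenic cells (0.34), with its other 2 probe sets at 0.58 and 0.61. Canx was thus above 0 by every probe set and Calr was not.

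Of the disulfide isomerases on the list, Pdia3 and Pdia4 were nearly level between arrays and Pdia6 was not. Pdia3 (ERp57), the partner of calnexin and calreticulin, was at 3838 in transgenic against 3724 in non-transgenic cells (0.04), and Pdia4 at 742 in transgenic against 713 in non-transgenic cells (0.06). Both turned negative under the other scalings, under which the median of all genes was lower too. Pdia6 was at 2361 in transgenic against 1748 in non-transgenic cells (0.43), with its other probe set at 0.93. Creld2, an ER stress-induced protein with disulfide isomerase activity, was at 1435 in transgenic against 1271 in non-transgenic cells (0.17), and its ratio was -0.02 after quantile normalization.

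Prolyl isomerases turn proline bonds in folding chains. Fkbp2 was at 1757 in transgenic against 1380 in non-transgenic cells (0.35). Fkbp11, a prolyl isomerase known to be abundant in plasma cells, was at 143 in transgenic against 271 in non-transgenic cells, 1.90-fold lower (-0.93), which is the lowest ratio among the 44 representing probe sets. Its other 2 probe sets lay under the filter on both arrays. Without alignment its ratio was -1.09, past 2-fold. Mzb1, a B lineage co-chaperone that helps IgM assembly, was at 19071 in transgenic against 15474 in non-transgenic cells (0.30), with a single probe set.

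ER folding enzymes outside the list had a median of 0.17 over 16 genes above the filter, with 1 at least 2-fold lower. That was Txndc5, a disulfide isomerase, at 2041 in transgenic against 4853 in non-transgenic cells (-1.25), and at -0.55 by its second probe set. The prolyl isomerase Ppib was at 8258 in transgenic against 7588 in non-transgenic cells (0.12), and Selenof, a selenoprotein of the ER, at 5185 in transgenic against 4446 in non-transgenic cells (0.22).

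**Figure D2:**
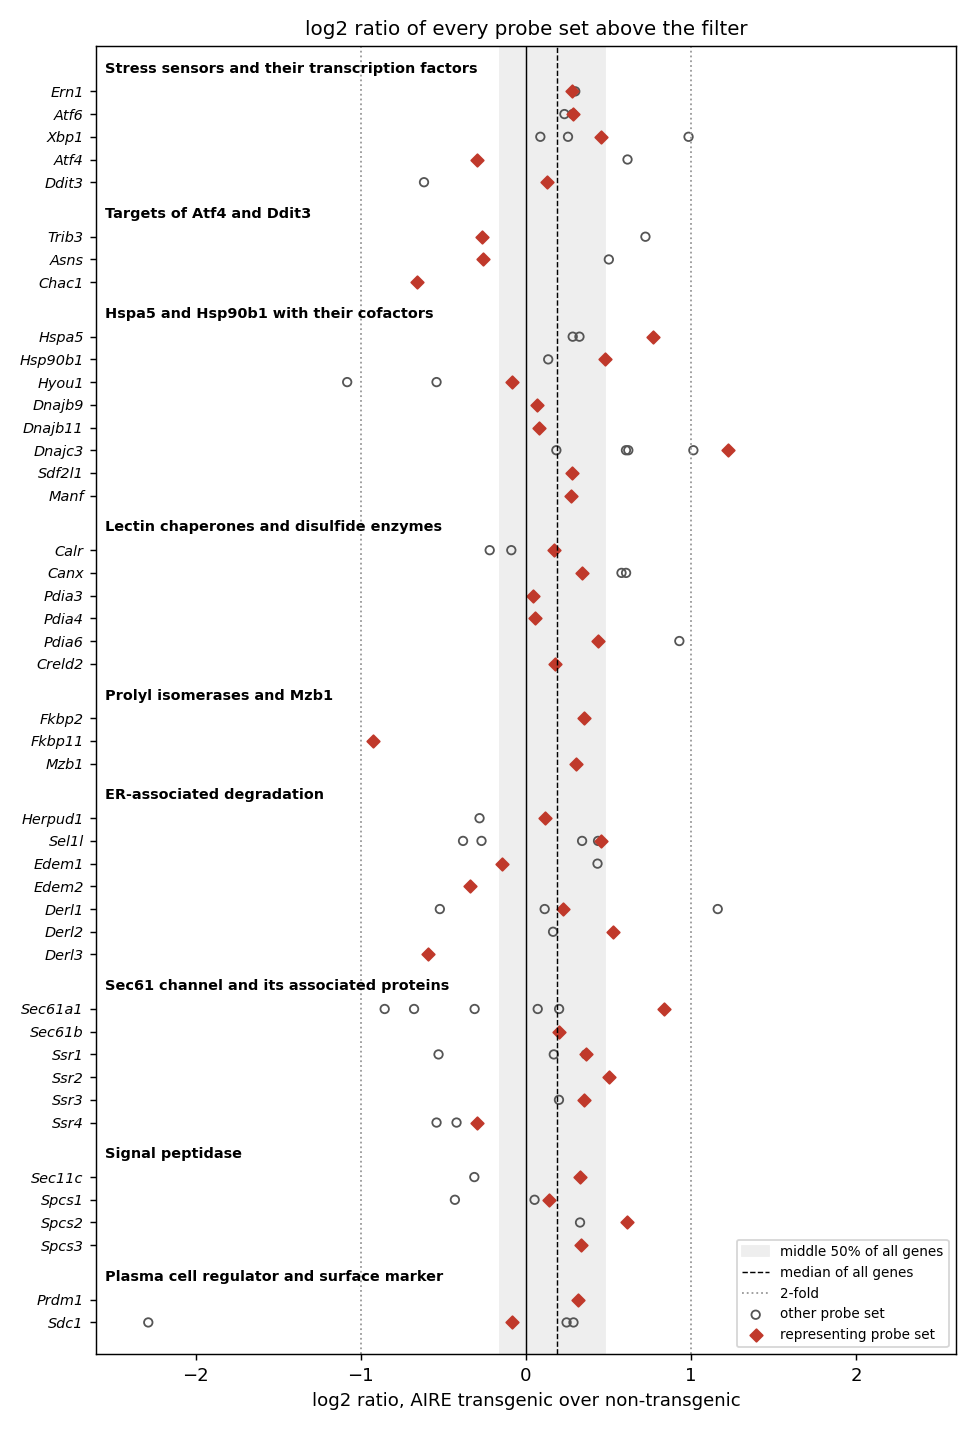
log2 ratio, AIRE transgenic over non-transgenic, of each of the 96 probe sets above the filter, with diamonds for the representing probe set and circles for the others. The grey band is the middle 50% of all genes, and the probe sets of Sec61a1, Derl1, Sel1l and Sdc1 fall on both sides of 0.

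Probe sets of the same gene often disagreed. Of 27 members with 2 or more probe sets above the filter, 11 had every probe set above 0, 2 had every one below 0 (Hyou1 and Ssr4) and 14 had both signs. Across all genes with 2 or more such probe sets, 35.8% had every one above 0, 14.6% every one below and 49.7% both. Besides Dnajc3, Hspa5, Hsp90b1, Canx, Pdia6, Ssr3 and Spcs2, the genes above 0 by every probe set were Ern1, Atf6, Xbp1 and Derl2.

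Some of the promoters hold a known regulatory sequence. The list was drawn up by function and holds chaperone genes, on which this sequence is known to act. Its share among the members is therefore not independent of how they were chosen. The ER stress element (ERSE) is the site through which cleaved Atf6, together with the factor NF-Y, and Xbp1 act on chaperone genes, and it was searched as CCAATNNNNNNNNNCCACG on both strands. RefSeq promoters (GRCm38.p6, 250 bases before to 50 after the start site) were held for 36 of the 45 genes. An exact ERSE lay in 8 of these 36 (22.2%), against 37 of 27025 genes with a promoter in the table (0.137%). The matches below show the element in 5 of the 8 genes on the strand of the gene, with its fixed bases in capitals. Among these 8 genes, Dnajc3 is the one past 2-fold, Hspa5, Hsp90b1 and Pdia6 had the next highest ratios, and Derl3 is the one below 0.
Dnajc3: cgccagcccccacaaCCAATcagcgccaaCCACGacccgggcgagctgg
Hspa5: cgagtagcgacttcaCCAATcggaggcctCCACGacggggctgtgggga
Hsp90b1: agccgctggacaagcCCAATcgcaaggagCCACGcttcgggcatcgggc
Pdia6: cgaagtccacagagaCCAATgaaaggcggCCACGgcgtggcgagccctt
Derl3: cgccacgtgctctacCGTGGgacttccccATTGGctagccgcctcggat
These stretches lie at chr14:118937812-118937860 (plus strand), chr2:34772010-34772058 (plus), chr10:86705623-86705671 (minus), chr12:17266476-17266524 (plus) and chr10:75893227-75893275 (plus). In Derl3 the element runs in the reverse direction, so its capitals read as the reverse complement.

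The other 3 genes with an ERSE were Calr, Canx and Creld2, and Hsp90b1 held a second, reversed copy. The element began 65 bases before the start site in Hspa5, 98 in Pdia6, 105 in Dnajc3 and 212 in the copy of Hsp90b1 shown. The median log2 ratio was 0.39 over the 8 genes with an ERSE, and 0.12 over the 27 measured genes whose promoter held none. Above 0 were 7 of the 8 and 18 of the 27, beside the 64.9% of all genes, and above the median of all genes were 5 of the 8 and 11 of the 27. Among genes outside the list, 6 with an ERSE lay above the filter, with a median of -0.03 and 3 of them above 0. Of the 6, 1 was at least 2-fold lower, against 3.19% of all genes. That was Spats2l, at 9.4 in transgenic against 102 in non-transgenic cells, where values below 25.1 were raised to it before the ratio. Ero1b and Syvn1, also among the 6, serve ER folding and degradation themselves.

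The related element ERSE-II (ATTGGNCCACG, which shares the CCACG of the ERSE) was found in Herpud1 and Dnajb11, 2 of the 36 promoters, against 0.0444% of all genes. The Xbp1 motif searched as TGACGTGG was in 0 of the 36 and in 0.714% of all genes. A match of letters is a description and was not tested as a binding site.

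**Figure D3:**
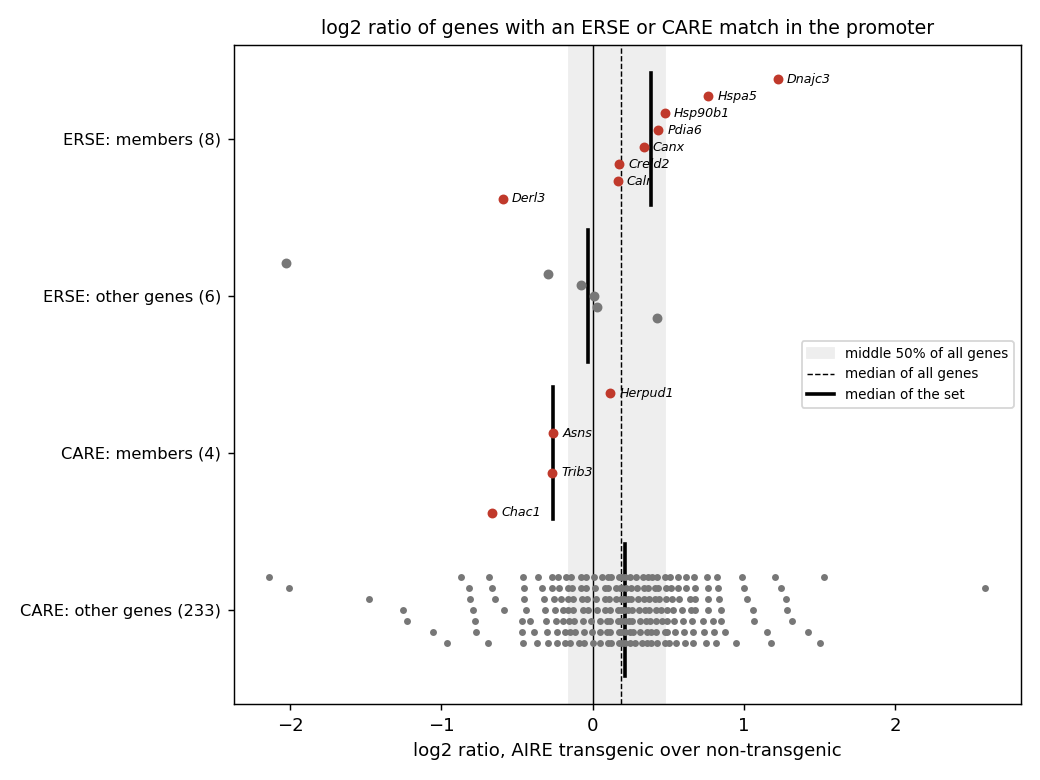
log2 ratio, AIRE transgenic over non-transgenic, of genes above the filter with an ERSE or a CARE (the Atf4 element) in the RefSeq promoter, for members and for other genes, with black bars for medians. The 8 members with an ERSE have a median of 0.39 and the 4 with a CARE a median of -0.26. The 233 other genes with a CARE have 0.21, beside 0.19 for all genes.

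Genes of ER-associated degradation, which returns failed proteins to the cytosol, had a median of 0.12 over 7 genes, beside 0.19 over all genes. Without alignment these medians were -0.05 and 0.01. The derlins form part of the exit channel. Derl1 was at 8123 in transgenic against 6946 in non-transgenic cells (0.23), with other probe sets between -0.52 and 1.16. Derl2 was at 1815 in transgenic against 1258 in non-transgenic cells (0.53), with its other probe set at 0.16, and Derl3 at 440 in transgenic against 663 in non-transgenic cells, 1.51-fold lower (-0.59). The 3 derlins therefore had no common direction.

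Sel1l, the adaptor that links substrates to the ubiquitin ligase Hrd1, was at 2578 in transgenic against 1880 in non-transgenic cells (0.46), with 3 of its 5 probe sets above 0. Herpud1, a membrane protein of the same complex, was at 3714 in transgenic against 3425 in non-transgenic cells (0.12), with its other probe set at -0.28. Edem1 and Edem2, mannosidase-like proteins that mark glycoproteins for degradation, were at 2610 in transgenic against 2888 in non-transgenic cells (-0.15) and at 1194 in transgenic against 1509 in non-transgenic cells (-0.34). The other probe set of Edem1 was at 0.43.

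Degradation factors outside the list had a median of 0.10 over 14 genes, with 1 at least 2-fold lower and 0 at least 2-fold higher. This was Man1b1, an ER mannosidase that trims glycans of misfolded proteins, at 318 in transgenic against 1067 in non-transgenic cells (-1.75), measured by 1 probe set. Syvn1, the ubiquitin ligase Hrd1 itself, was at 6371 in transgenic against 6702 in non-transgenic cells (-0.07), and Vcp, the ATPase that pulls substrates out, at 6351 in transgenic against 5571 in non-transgenic cells (0.19).

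The stress sensors and their transcription factors had a median of 0.28 over 5 genes, none of them 1.5-fold apart. Ern1, the sensor that splices Xbp1 RNA, was at 764 in transgenic against 630.5 in non-transgenic cells (0.28). Atf6, the sensor that is cleaved to a transcription factor, was at 1334 in transgenic against 1094 in non-transgenic cells (0.29), with its 3 probe sets between 0.23 and 0.29. Xbp1, the transcription factor that Ern1 activates by splicing, was at 8119 in transgenic against 5930 in non-transgenic cells (0.45), and its 4 probe sets ran from 0.09 to 0.98. The array values do not separate spliced from unspliced Xbp1 RNA.

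Atf4, the transcription factor that is translated when PERK or its relatives are active, was at 7569 in transgenic against 9295 in non-transgenic cells (-0.30), against 0.61 for its other probe set above the filter. Ddit3 (CHOP), a transcription factor of prolonged stress, was at 899 in transgenic against 824 in non-transgenic cells (0.12), with its other probe set at -0.62. Both genes thus changed sign with the probe set. Sensors and regulators outside the list had a median of 0.12 over 14 genes, with 1 at least 2-fold higher. That was Creb3l1, an ER-anchored transcription factor, at 142 in transgenic against 63.6 in non-transgenic cells (1.16), under the filter on the non-transgenic array. Ppp1r15a (GADD34) and Ppp1r15b, which direct the removal of phosphate from the translation factor eIF2 alpha, were at 6363 in transgenic against 6005 in non-transgenic cells (0.08) and at 3676 in transgenic against 3708 in non-transgenic cells (-0.01).

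The 3 targets of Atf4 and Ddit3 on the list were the one step with a median below 0, at -0.27. Trib3, a pseudokinase induced by Ddit3 and Atf4, was at 172 in transgenic against 207 in non-transgenic cells (-0.27). Asns, asparagine synthetase, was at 172 in transgenic against 206 in non-transgenic cells (-0.26). Chac1, which degrades glutathione, was at 66.5 in transgenic against 105 in non-transgenic cells (-0.66). All 3 had intensities near the filter, and the other probe sets of Trib3 and Asns pointed the other way, at 0.72 and 0.50. With the mean of probe sets the median of the step was 0.12.

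Each of these 3 genes had a match to the core of the CCAAT enhancer binding protein and Atf response element (CARE), through which Atf4 acts, searched as TGATGNAA on both strands. It was in 4 of the 36 promoters, the other being Herpud1, and in 4.51% of all genes. In Asns and Chac1 it lay before the start site, and in Trib3 after it, so that the first 2 are shown, with the fixed bases in capitals.
Asns: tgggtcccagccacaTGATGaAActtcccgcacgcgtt
Chac1: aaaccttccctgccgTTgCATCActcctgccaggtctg
They lie at chr6:7693210-7693247 (minus strand) and chr2:119351034-119351071 (plus strand), and the match in Chac1 is the reverse complement. The 233 other genes above the filter with such a match had a median of 0.21, beside 0.19 over all genes. Of these 233, 15 were past 2-fold upward and 6 downward, against 4.43% and 3.19% of all genes. A wider list of Atf4 targets, chosen by function but with earlier results known, had a median of 0.16 over 19 genes and 0 at least 2-fold apart. In it the stress gene Ddit4 was at 2601 in transgenic against 2821 in non-transgenic cells (-0.12), and Slc3a2, a chain of amino acid transporters, at 2349 in transgenic against 2474 in non-transgenic cells (-0.07).

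Prdm1 (Blimp-1), the regulator of plasma cell fate, was at 301 in transgenic against 242 in non-transgenic cells (0.31). Sdc1 (CD138), the plasma cell surface proteoglycan, was at 517 in transgenic against 548 in non-transgenic cells (-0.08). Its 4 probe sets ran from -2.29 to 0.29, the lowest standing for 37.1 in transgenic against 181 in non-transgenic cells. The joining chain Jchain, a plasma cell gene outside the list, was at 18279 in transgenic against 23590 in non-transgenic cells (-0.37). No plasma cell marker was 1.5-fold apart by its representing probe set, whether in the list or outside it.

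Vesicle coats carry folded cargo onward. The COPII coat and its cargo receptors, which leave the ER, had a median of 0.38 over 21 genes with 0 at least 2-fold apart. It was 0.18 after quantile normalization, 0.13 when probe sets were averaged and 0.07 by the probe set of median ratio. The medians over all genes were then 0.05, 0.11 and 0.05. Sec24c, a cargo-binding coat subunit, was at 4439 in transgenic against 3536 in non-transgenic cells (0.33), and Sec16a, which organises exit sites, at 3688 in transgenic against 2571 in non-transgenic cells (0.52). The COPI coat, which returns material to the ER, had a median of 0.25 over 10 genes with 0 at least 2-fold apart, with the GTPases Arf1 at 16467 in transgenic against 13960 in non-transgenic cells (0.24) and Arf4 at 6128 in transgenic against 5009 in non-transgenic cells (0.29). Over all 122 related genes above the filter the median was 0.19, and 3 of them were past 2-fold, Creb3l1 upward and Txndc5 and Man1b1 downward.

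**Figure D4:**
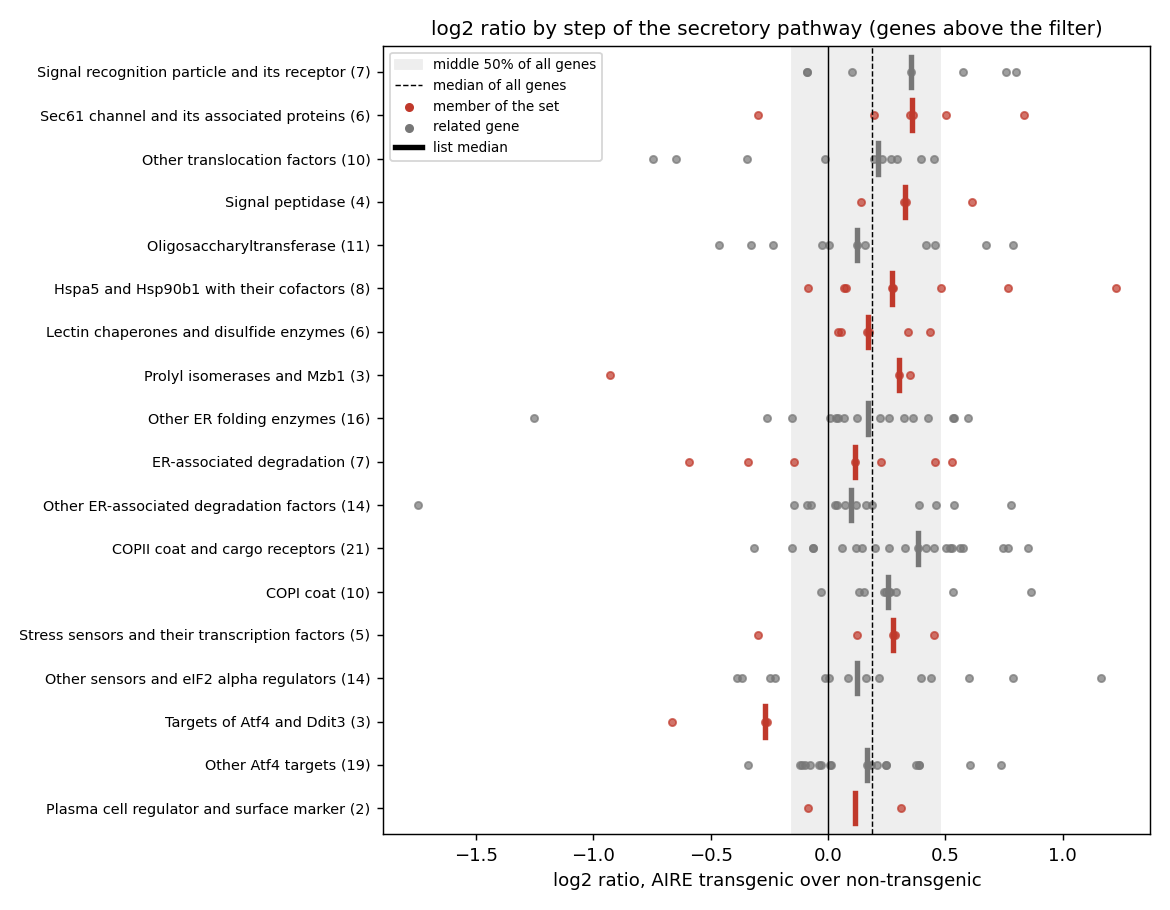
log2 ratio, AIRE transgenic over non-transgenic, of genes above the filter by step of the secretory pathway, with members in red, related genes in grey, bars for list medians and the number of genes in brackets. Medians run from -0.27 for the targets of Atf4 and Ddit3 to 0.38 for the COPII coat, beside 0.19 for all genes.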

How the data were processed

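RNA of 2 groups was measured on 1 array each. Each probe set has 1 deposited intensity per array, on a linear scale. The software and scaling that the authors used are not given in the sources used here. Of 45037 probe sets besides 64 controls, 34945 carry 1 symbol in the platform table (932 several, 9160 none), of which 34741 were found by Entrez identifier in RefSeq genes of GRCm38.p6. The transgenic median differed by -0.16 on the log2 scale, so both arrays were multiplied to reach the pooled median (by 1.06 and 0.947). Intensities below 25.1, the pooled 25th percentile, were raised to it before log2 was taken. The steps were tested on simulated arrays. The number of arrays limits the precision. Every member is named, and of each related list the genes at least 2-fold apart and the 2 of highest level. Members, lists and motifs were chosen with earlier results of these data known. Alternatives were no scaling, quantile normalization, loess on mean level, other floors, filters, thresholds and probe set rules. Python 3.11.15, numpy 2.4.6, pandas 2.3.3 and statsmodels 0.14.6 were used.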

Additional observations from a re-analysis of the deposited data

How the results depend on the processing

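Medians of lists were compared between settings after the median of all genes was subtracted, since that median was 0.19 as reported, 0.01 without scaling, 0.05 after quantile normalization and 0.04 after loess. The median of the 44 genes was 0.06 above that of all genes, and between 0.02 and 0.22 above it under the 11 alternatives, the highest without a filter. The share of higher among all 2-fold calls was 58.1%, against 36.2% without scaling, 48.1% with quantile normalization, 49.4% with loess and 35.6% where the probe set of median ratio stood for a gene. The number of members at least 2-fold higher was 0 when probe sets were averaged, 0 when that of median ratio was used, and 4 at a 1.5-fold threshold. The number at least 2-fold lower was 1 without scaling and 3 at 1.5-fold. Beside all genes, the targets of Atf4 and Ddit3 stood at -0.45 as reported and at 0.015 with the mean of probe sets. The signal recognition particle with its receptor stood at 0.17 and 0.40, and the other sensors at -0.06 and 0.14. The other folding enzymes stood at -0.01 as reported and at 0.20 without a filter. Signs of single members turned in 7 of 44 without scaling, in 8 under quantile normalization, in 8 under loess and in 10 when probe sets were averaged. Sec61a1 stood at -0.12 by the mean of probe sets, -0.31 by that of median ratio and 0.20 without shared probe sets, and Sec11c at -0.31 under the last 2. Causes were not tested. Members that moved by more than 1.5-fold under any alternative were Sec61a1, Sec11c, Ddit3 and Dnajc3, each with the choice of probe set.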
